A study of Vigna subterranea with 10 samples.

Results

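The genes described here are those whose annotated symbol marks a ribosomal protein, a tubulin, an actin, a ubiquitin, a translation elongation or initiation factor, glyceraldehyde-3-phosphate dehydrogenase, or the proteasome subunit PAE1, which are the kinds of gene that are most often chosen as references when leaf RNA is compared between treatments. The symbol pattern found 22 of the 36578 soybean probe sets, belonging to 12 gene symbols. They were 9 probe sets of ribosomal proteins, 4 of glyceraldehyde-3-phosphate dehydrogenase, 3 of beta-tubulins, 3 of PAE1, 2 of the elongation factor subunit EF1BGAMMA4 and 1 of the soybean ubiquitin SUBI-1. No probe set with a single symbol of the actin, alpha-tubulin, UBQ, ELF1 or EIF kind was found, and 3 probe sets that list SUBI-1 among several symbols were left out. The question is which of these transcripts kept a level value when the plants were moved to lower temperatures, both on the deposited values and after each array was centred on its own median.

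The plant was bambara groundnut (Vigna subterranea), a legume grown in Africa for its seeds, and its leaf RNA was hybridised to the Soybean GeneChip, a short-oligonucleotide array made for a related legume. The 9 RNA arrays came from fully expanded leaflets of genotype S19-3 kept at 18 °C (very sub-optimal, 3 arrays), at 23 °C (sub-optimal, 3 arrays) and at 27 °C (optimal, 3 arrays). The same 3 plants were sampled at 27 °C first, then at 23 °C and at 18 °C last, so that temperature cannot be told apart from leaf age, time in the pot or the earlier sampling. The labels do not tie replicate numbers to plants, and p-values measure only the spread between leaflets.

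A ribosome is built from RNA and many proteins of a small (RPS) and a large (RPL) subunit, and elongation factors deliver the amino acids to it. The proteasome is the barrel-shaped protease that degrades proteins tagged with ubiquitin, and beta-tubulin is a subunit of the microtubules. Glyceraldehyde-3-phosphate dehydrogenase of the cytosol catalyses a step of glycolysis. Because every living cell needs these products, their transcripts are often assumed to be steady, and a measurement of any other gene that is divided by an unsteady one carries over its movement.

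Values are log2 expression values as the authors deposited them, and differences are given in log2 units. Some values (1312 of them) exceeded 16 and others (1434) were negative, outside the span of log2 intensities of a 16-bit scan, so that a further step in their making is unknown and a difference may not equal a true log2 fold change. Array medians were 7.89, 8.01 and 7.98 at 18 °C, 8.05, 8.08 and 8.08 at 23 °C, and 8.05, 8.07 and 8.11 at 27 °C. Averaged by temperature, the median at 18 °C was shifted by -0.12 relative to 27 °C and by -0.11 relative to 23 °C, and centring moves every 18 °C value up by about that much relative to the others. The leaf markers RCA14 (Rubisco activase) and CAB3 (a light-harvesting protein) had bright probe sets with means of up to 17.7 and 18.3, whereas the 4 nodule probe sets had means of 4.32 to 6.09, and of 11 seed storage probe sets only 1 GY1 probe set (11.8) exceeded 10. At 18 °C against 27 °C 12 of 14 leaf marker probe sets and 9 of 11 seed ones had a negative difference, with medians of -0.71 and -1.14. Of these, 1 leaf marker (PSAD, of photosystem I) fell and 0 seed markers passed in limma. Of the 11 seed markers, 0 had an unadjusted p under 0.05 in limma and 1 had one in the methods' t-test, which called 0. Over all 36578 soybean probe sets, 19282 had a negative difference at 18 °C against 27 °C, with a median of -0.06, and 0.845% fell. These array-wide figures were not matched to the levels of the markers. The mean log2 value of the 14 leaf markers was 9.91 to 11.3 on the 18 °C arrays, 10.6 to 11.1 at 23 °C and 10.7 to 11.8 at 27 °C, that of the 11 seed markers 5.58 to 6.69, 6.11 to 6.67 and 6.87 to 7.12, and their part in the results below was not tested.

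Of the 22 members, 10 had a mean of at least 10 over the 9 arrays, against 7017 of all 36578 probe sets, and they cover 8 gene symbols. Another 3 had a mean between 9 and 10, and 9 had a mean under 8. This split matters because the spread over the 9 arrays depends on level. Over all soybean probe sets the median standard deviation (SD) after centring was 1.75 at a mean of 4 to 6, 1.54 at 6 to 8, 0.69 at 8 to 10, 0.42 at 10 to 12, 0.35 at 12 to 14 and 0.31 above 14. A dim probe set cannot be judged by its variation, since most of its neighbours vary as much. Probe sets are told apart here by their symbol and the ending of their name, and the panel titles of the plots give the whole name. Probe sets ending in _a_at or _s_at share their probes among transcripts, and those ending in _x_at hold probes that may bind other transcripts, so that a value on this array can sum over several members of a family.

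The elongation factor subunit EF1BGAMMA4 was the steadiest of the bright members. It is the gamma subunit of the factor that recharges elongation factor 1 with GTP. Its _a_at probe set read 12.57, 12.18 and 12.55 at 18 °C, 12.15, 12.04 and 12.23 at 23 °C, and 12.19, 12.05 and 12.27 at 27 °C. The 3 groups overlapped, and the whole range over 9 arrays was 0.54. Its SD was 0.19 as deposited and 0.25 after centring, and 77.7% of the probe sets at a mean of 12 to 14 had a larger centred SD. The differences were 0.27 ± 0.17 (SE, n = 3 per group) for 18 °C against 27 °C, -0.03 ± 0.17 for 23 °C against 27 °C and 0.30 ± 0.17 for 18 °C against 23 °C (limma adjusted p = 0.579, 0.984 and 0.603). After centring the 18 °C values no longer overlapped with either other group, with differences of 0.38 ± 0.18 from 27 °C and 0.41 ± 0.18 from 23 °C (limma adjusted p = 0.401 and 0.445).

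RPL2, a ribosomal protein of the large subunit, was close behind. Its symbol does not say whether the cytosolic or an organelle form is meant. Its bright probe set read 12.88, 12.37 and 12.70 at 18 °C, 12.65, 12.40 and 12.73 at 23 °C, and 12.41, 12.45 and 12.18 at 27 °C. The lowest array was replicate 3 at 27 °C, and the groups overlapped. The SD was 0.22 as deposited and 0.27 after centring, smaller than that of 71.1% of probe sets of like level, and the largest difference was 0.30 ± 0.18 at 18 °C against 27 °C (limma adjusted p = 0.548).

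RPS6 of the small subunit behaved differently, as its group means lay close together but 1 group was wide. Its _x_at probe set read 11.25, 11.85 and 10.60 at 18 °C, 11.38, 11.28 and 11.52 at 23 °C, and 11.57, 11.24 and 11.55 at 27 °C. The highest and the lowest of the 9 arrays were both at 18 °C, where the SD was 0.63, against 0.12 at 23 °C and 0.19 at 27 °C. None of its differences exceeded 0.22 in size. It was the only bright member with a negative difference at 18 °C, of -0.22 ± 0.28 from 27 °C and -0.17 ± 0.28 from 23 °C (limma adjusted p = 0.826 and 0.908). The other RPS6 probe sets were just under a mean of 10. The _s_at one, which carries the same target name as _x_at, averaged 9.69 ± 0.36 at 18 °C, 9.68 ± 0.27 at 23 °C and 9.98 ± 0.19 at 27 °C (SD, n = 3 each), and its centred SD of 0.26 was smaller than that of 98.3% of probe sets with a mean of 8 to 10. With a mean of 9.78 the _s_at probe set lies near the top of that bin, and spread falls with level, so this share may overstate its steadiness. The _at one, of another target, averaged 9.84 ± 0.39, 9.47 ± 0.30 and 9.87 ± 0.44 at 18, 23 and 27 °C.

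**Figure D1:**
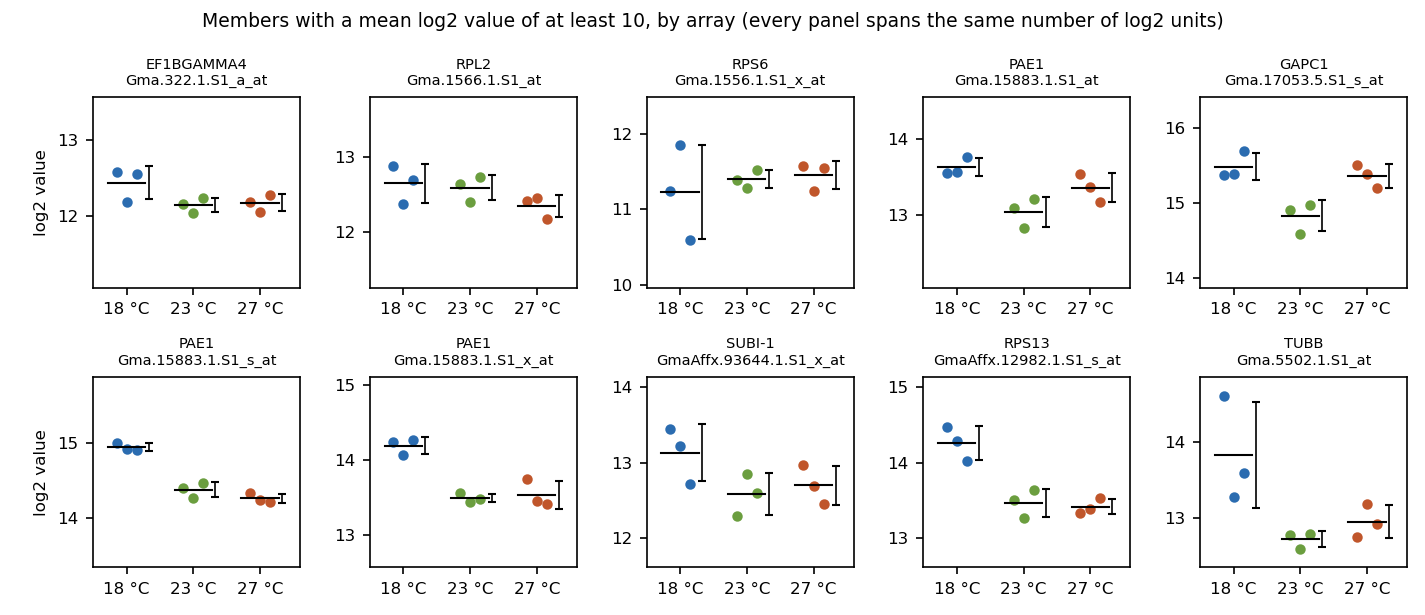
Deposited log2 values (vertical axes) of the 10 members with a mean of at least 10 at 18, 23 and 27 °C. Points are arrays, lines are means and bars are SDs of 3 arrays, every panel spans the same number of log2 units, and panels run from the smallest centred SD (EF1BGAMMA4, 0.25) to the largest (TUBB, 0.69). For PAE1 _s_at and _x_at, RPS13, TUBB and, by little, PAE1 _at the 18 °C points lie above all others.

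PAE1, alpha subunit E of the proteasome core, rose at 18 °C. It is described by 3 probe sets with the same target name, which therefore do not count as separate genes. The _s_at probe set read 15.01, 14.92 and 14.91 at 18 °C, 14.40, 14.28 and 14.47 at 23 °C, and 14.34, 14.25 and 14.22 at 27 °C. All 18 °C arrays lay above all others, whereas 23 °C and 27 °C overlapped. The difference was 0.68 ± 0.11 at 18 °C against 27 °C (limma adjusted p = 0.0067) and 0.56 ± 0.11 at 18 °C against 23 °C (limma adjusted p = 0.0336), beside 0.12 ± 0.11 at 23 °C against 27 °C (limma adjusted p = 0.823). The _x_at probe set gave the same picture, with 14.24, 14.06 and 14.26 at 18 °C, 13.56, 13.44 and 13.48 at 23 °C, and 13.75, 13.45 and 13.41 at 27 °C. It rose by 0.65 ± 0.13 against 27 °C (limma adjusted p = 0.0312) and by 0.69 ± 0.13 against 23 °C (limma adjusted p = 0.0382).

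The remaining PAE1 probe set did not pass. It ends in _at and read 13.55, 13.57 and 13.76 at 18 °C, 13.08, 12.82 and 13.21 at 23 °C, and 13.54, 13.37 and 13.16 at 27 °C. Its 18 °C arrays were the 3 highest here too, but the lowest of them barely exceeded the highest 27 °C array (13.54), and its 23 °C mean was the lowest. The differences were 0.27 ± 0.15 at 18 °C against 27 °C, -0.32 ± 0.15 at 23 °C against 27 °C and 0.59 ± 0.15 at 18 °C against 23 °C (limma adjusted p = 0.528, 0.563 and 0.132).

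RPS13, a ribosomal protein of the small subunit, also rose at 18 °C. Its bright probe set read 14.47, 14.29 and 14.02 at 18 °C, 13.50, 13.27 and 13.64 at 23 °C, and 13.33, 13.39 and 13.53 at 27 °C. The 18 °C arrays were the 3 highest, and the other groups overlapped. The rise was 0.85 ± 0.15 against 27 °C (limma adjusted p = 0.0161) and 0.79 ± 0.15 against 23 °C (limma adjusted p = 0.0394), while 23 °C differed from 27 °C by 0.05 ± 0.15 (limma adjusted p = 0.963). The dimmer RPS13 probe set did not show this. It read 9.57, 8.17 and 10.29 at 18 °C, 8.62, 10.10 and 8.41 at 23 °C, and 10.81, 9.0 and 8.23 at 27 °C, a difference of -0.01 ± 0.74 at 18 °C against 27 °C, and its 95% confidence interval of -1.64 to 1.63 contains the rise of the brighter one.

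In all, 3 of the 22 members rose and 0 fell at 18 °C against 27 °C, where 1.28% of all soybean probe sets rose and 0.845% fell, and 5 members had an unadjusted p under 0.05. All 3 are among the 10 bright members, of which 3 therefore rose, and 5.79% of the 7017 bright probe sets rose. The same 3 probe sets rose at 18 °C against 23 °C, where 0.55% of all and 2.55% of bright probe sets did and 0.394% of all fell. In limma 8 members had an unadjusted p under 0.05 at 18 °C against 23 °C. The comparisons with 18 °C share the 18 °C arrays. At 23 °C against 27 °C 0 of 22 members passed in limma, where 0.776% of all probe sets were called in either direction. In that comparison 1 member had an unadjusted p under 0.05 in limma and 2 had one in the methods' t-test, an ordinary test of 2 groups per probe set, which also called 0. The share of all probe sets with an unadjusted p under 0.05 is not given. The unadjusted counts here and below can therefore not be read as an excess. The bright members tended to lie higher at 18 °C, as 9 of 10 had a positive difference from 27 °C and 9 of 10 from 23 °C, where 53.6% of bright probe sets had one in each comparison. At 23 °C against 27 °C it was 3 of 10, beside 50.8%. As 3 of the 10 are PAE1 probe sets, the tally was also taken over the 8 symbols with the brightest probe set of each, where 7 of 8 had a positive difference at 18 °C against 27 °C and 7 of 8 at 18 °C against 23 °C, and 2 of 8 (PAE1 and RPS13) rose in each. Over the 10 bright members, with all 3 PAE1 probe sets counted, the median difference was 0.37 at 18 °C against 27 °C. It was -0.05 at 23 °C against 27 °C and 0.58 at 18 °C against 23 °C. The medians over all bright probe sets were 0.05, 0.01 and 0.04. The shares and medians of bright probe sets were not matched to the levels of the members. Of the 7017 bright probe sets, 4647 had a mean of 10 to 12, whereas most bright members lay above 12. Quantile normalisation, which gives all arrays the same distribution, lowered the difference of every bright member at 18 °C against 27 °C. It was then 0.15 for EF1BGAMMA4 _a_at, 0.53 for PAE1 _s_at and 0.01 for GAPC1. Values did not overlap between groups for 5 of 10 bright members at 18 °C against 27 °C (38.4% of all bright probe sets), 1 of 10 at 23 °C against 27 °C (28.2%) and 6 of 10 at 18 °C against 23 °C (30.9%).

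The calls depended on the error model and on single arrays. With 1 common variance prior for all probe sets in limma, 0 members passed in any comparison, and 0.104% of all probe sets did at 18 °C against 27 °C, 0.00273% at 23 °C against 27 °C and 0.00547% at 18 °C against 23 °C. The counts of members with an unadjusted p under 0.05 in that fit were 4, 1 and 4. With the methods' t-test after Benjamini-Hochberg adjustment 0 members passed as well, beside 0.0%, 0.00273% and 0.0082% of all probe sets, with 4, 2 and 5 members at an unadjusted p under 0.05. That test was run here on all probe sets, whereas the study first kept those called present on every array, a filter that was not applied. When the bright probe sets alone were tested in limma, 6 of the 10 bright members rose at 18 °C against 23 °C, beside 6.77% of the 7017. PAE1 _s_at at 18 °C against 27 °C was the only call that held without each of the 9 arrays in turn (limma adjusted p 0.00645 to 0.0392). At 18 °C against 27 °C RPS13 was lost without 27 °C replicate 1 (limma adjusted p = 0.0661) or 2 (0.0735) and without 18 °C replicate 1 (0.0759) or 2 (0.0641). PAE1 _x_at was lost in that comparison without 27 °C replicate 2 (0.133) or 3 (0.117), 23 °C replicate 3 (0.06), and 18 °C replicate 1 (0.12), 2 (0.0564) or 3 (0.096). At 18 °C against 23 °C every array mattered, and 0 or 1 of the 3 calls was left. PAE1 _x_at passed only without 27 °C replicate 1 (limma adjusted p = 0.0364) and RPS13 only without 18 °C replicate 3 (0.0413), while PAE1 _s_at lay at 0.051 to 0.128.

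GAPC1, the cytosolic glyceraldehyde-3-phosphate dehydrogenase, was lowest at 23 °C. Its probe set read 15.38, 15.39 and 15.68 at 18 °C, 14.91, 14.59 and 14.98 at 23 °C, and 15.50, 15.39 and 15.19 at 27 °C. The 23 °C arrays lay below all others, and 18 °C overlapped with 27 °C. The differences were 0.12 ± 0.14 at 18 °C against 27 °C (limma adjusted p = 0.793), -0.53 ± 0.14 at 23 °C against 27 °C (0.153) and 0.66 ± 0.14 at 18 °C against 23 °C (0.055). The last passed after centring (0.77 ± 0.15, limma adjusted p = 0.0342), and after quantile normalisation 23 °C was lower than 27 °C by a called amount, with a difference of -0.65 ± 0.12 (limma adjusted p = 0.0407), where 0.383% of all probe sets fell. Quantile normalisation also brought the difference at 18 °C against 23 °C past the threshold (0.66 ± 0.12, limma adjusted p = 0.0348), where 0.519% of all rose, while it lost RPS13 in that comparison (limma adjusted p = 0.0567).

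SUBI-1, a soybean ubiquitin, and TUBB, a beta-tubulin, had wide 18 °C groups. The SUBI-1 probe set read 13.45, 13.23 and 12.72 at 18 °C, 12.29, 12.86 and 12.60 at 23 °C, and 12.97, 12.68 and 12.45 at 27 °C. All groups overlapped, and the differences were 0.43 ± 0.22 at 18 °C against 27 °C and 0.55 ± 0.22 at 18 °C against 23 °C (limma adjusted p = 0.47 and 0.41). The TUBB probe set read 14.61, 13.28 and 13.60 at 18 °C, 12.76, 12.59 and 12.78 at 23 °C, and 12.74, 13.17 and 12.91 at 27 °C. Its 18 °C arrays were the 3 highest, and replicate 1 was the highest of the 9. The differences of 0.89 ± 0.28 from 27 °C and 1.12 ± 0.28 from 23 °C were the largest among bright members and did not pass (limma adjusted p = 0.172 and 0.119). Without 18 °C replicate 1 they were 0.49 and 0.73. TUBB had the largest SD of the bright members, 0.63 as deposited and 0.69 after centring, and only 8.75% of probe sets with a mean of 12 to 14 had a larger centred SD.

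**Figure D2:**
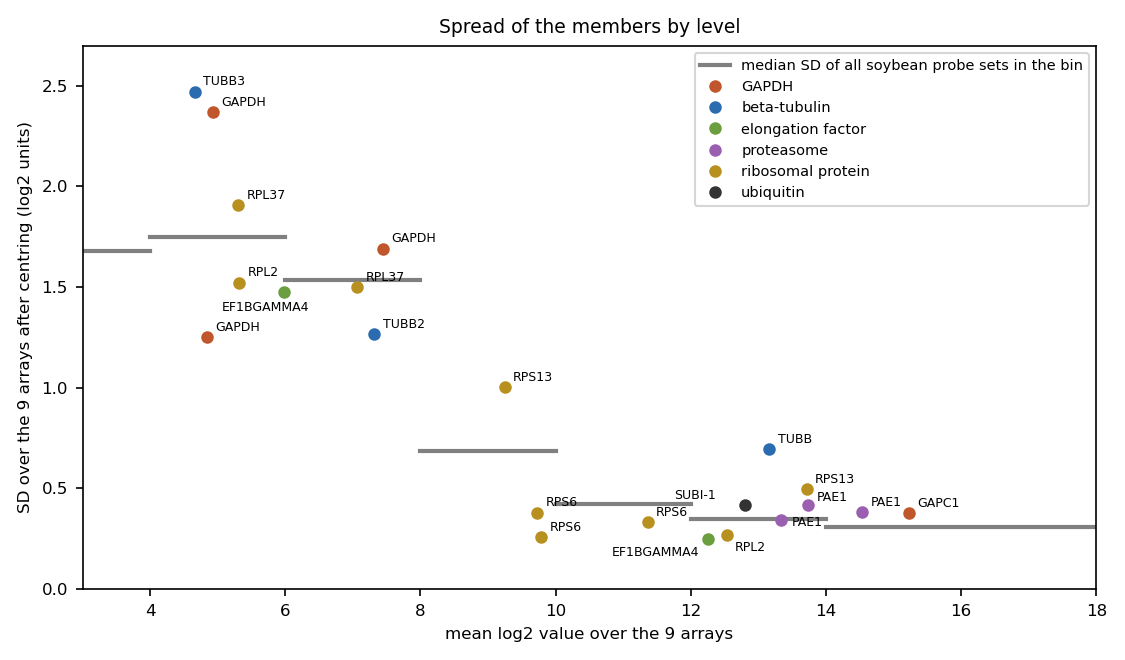
SD over the 9 arrays after centring (vertical axis, log2 units) against the mean log2 value (horizontal axis) for the 22 members, coloured by family, with grey lines for the median SD of all soybean probe sets in bins of 2 log2 units (the last bin holds all above 14). Among the bright members, EF1BGAMMA4, RPL2, RPS6 and, by little, PAE1 _at (0.344 against 0.348) lie below the line of their bin. TUBB lies farthest above it among them. Dim probe sets of RPS6, TUBB2, GAPDH, RPL37, EF1BGAMMA4 and RPL2 also lie below their line.

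A p that misses the threshold does not show that a gene is level, so the intervals of the differences were read as well. A member was called level where the 95% confidence intervals of all 3 temperature differences lay within 1 log2 unit of 0. As deposited, 8 of 22 members met this, and 8.61% of all probe sets did. Among the 10 bright members it was 7, beside 41.3% of all bright probe sets, but 3 of the 7 are PAE1 probe sets of the same target. By symbol these were EF1BGAMMA4, RPL2, RPS6, PAE1 and GAPC1, out of the 8 symbols with a bright probe set. The interval limit farthest from 0 was 0.66 for EF1BGAMMA4 _a_at, 0.69 for the bright RPL2 probe set and 0.85 for RPS6 _x_at. It was 0.91, 0.93 and 0.99 for PAE1 _s_at, _at and _x_at, 0.96 for GAPC1 and 0.97 for RPS6 _s_at. Just outside lay SUBI-1 (1.05), RPS6 _at (1.16) and the bright RPS13 probe set (1.18), and TUBB reached 1.74. Level within this bound is thus not the same as unmoved, since both PAE1 probe sets that rose are inside it.

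The narrower the demand, the fewer members remained. Within 0.5 log2 units 0 of 22 members were level, and 0.53% of all probe sets were. After centring, 4 members were level within 1 log2 unit (8.06% of all probe sets), EF1BGAMMA4 _a_at, the bright RPL2 probe set, RPS6 _x_at and RPS6 _s_at, with farthest limits of 0.80, 0.85, 0.73 and 0.95. GAPC1 and the 3 PAE1 probe sets left, with limits of 1.08, 1.06, 1.06 and 1.13, because centring raised the 18 °C values. Quantile normalisation, which gives all arrays the same distribution, left 9 level members (8.76% of all probe sets) and added SUBI-1 (0.95). The count of 8 fell to 3 without 18 °C replicate 2, 4 without 23 °C replicate 3 and 5 without 27 °C replicate 2, and to 2 with a common variance prior.

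**Figure D3:**
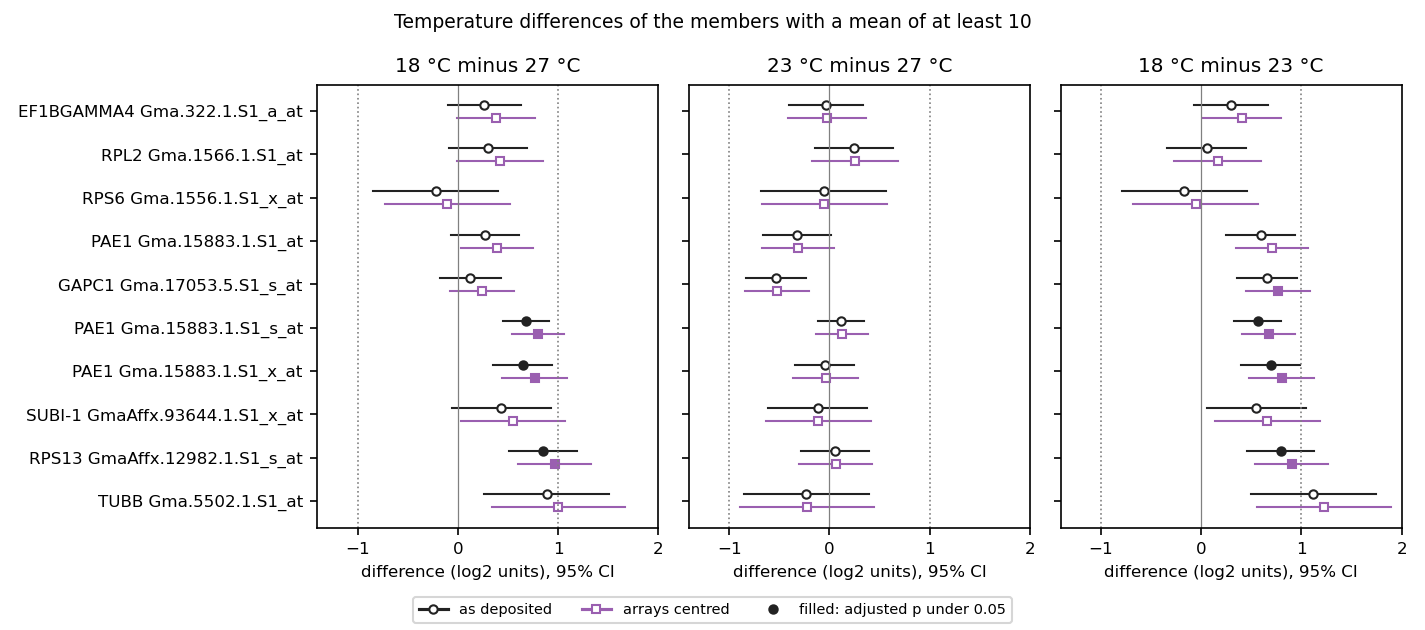
Temperature differences in log2 units (horizontal axes) with 95% confidence intervals for the 10 bright members (rows), as deposited (circles) and after centring each array (squares). Filled symbols had a limma adjusted p under 0.05, and dotted lines mark 1 log2 unit either side of 0. In the panels for 18 °C all squares lie right of their circles, by the same amount within a panel, and in the panel for 23 °C against 27 °C the pairs almost coincide.

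Centring kept the 3 calls at 18 °C against 27 °C and enlarged them. PAE1 _s_at then rose by 0.80 ± 0.12, PAE1 _x_at by 0.77 ± 0.15 and RPS13 by 0.96 ± 0.16 (limma adjusted p = 0.00502, 0.0216 and 0.0114), where 1.68% of all probe sets rose and 0.642% fell. At 18 °C against 23 °C there were 4 calls, the same 3 with 0.67 ± 0.12, 0.80 ± 0.15 and 0.90 ± 0.16 (limma adjusted p = 0.0243, 0.0291 and 0.028) and GAPC1, where 0.798% of all rose and 0.271% fell. At 23 °C against 27 °C it was again 0 of 22 in limma, beside 0.703% of all probe sets in either direction. The median SD of the bright members was 0.34 as deposited, 0.38 after centring and 0.31 after quantile normalisation. Of the bright members, RPS6 _x_at became steadier by centring (0.35 as deposited and 0.33 centred), and the other 9 became less steady. The mean of the 10 bright members lay 5.85, 5.51 and 5.50 above the array median at 18 °C, 5.02, 4.87 and 5.09 above it at 23 °C, and 5.18, 5.08 and 4.98 above it at 27 °C, so that the 18 °C arrays were again the 3 highest.

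A measure that needs no array scaling is the difference between 2 genes on the same array. For the 8 symbols with a bright probe set (the brightest of each), the SD over 9 arrays of each such difference was computed, and M is the mean of these SDs over the 7 partners of a gene, so that a low M marks a gene that keeps its distance to the others. M was 0.32 for PAE1, 0.33 for EF1BGAMMA4, 0.36 for RPS13, 0.38 for RPL2, 0.39 for SUBI-1, 0.41 for GAPC1, 0.52 for TUBB and 0.56 for RPS6. PAE1 and EF1BGAMMA4 kept the first and second places without each of the 9 arrays. Places in the middle moved, and TUBB ranked 4 of 8 without 18 °C replicate 1 and 8 of 8 without 18 °C replicate 3.

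This order differs from that by SD. The pair with the smallest SD was PAE1 and RPS13 (0.17), which both rose at 18 °C, and PAE1 lay above RPS13 by 0.53, 0.63 and 0.89 at 18 °C, 0.91, 1.01 and 0.83 at 23 °C, and 1.01, 0.86 and 0.69 at 27 °C. Next came EF1BGAMMA4 and RPL2 (0.19), of which both were level before and after centring. RPL2 minus EF1BGAMMA4 was 0.30, 0.19 and 0.15 at 18 °C, 0.50, 0.37 and 0.50 at 23 °C, and 0.23, 0.40 and -0.09 at 27 °C. The absolute size of such a difference has no meaning between probe sets, and only its change over arrays is read. The largest pair SD was that of RPS6 and TUBB (0.82). The highest TUBB array was replicate 1 at 18 °C and the highest RPS6 array replicate 2 at 18 °C.

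**Figure D4:**
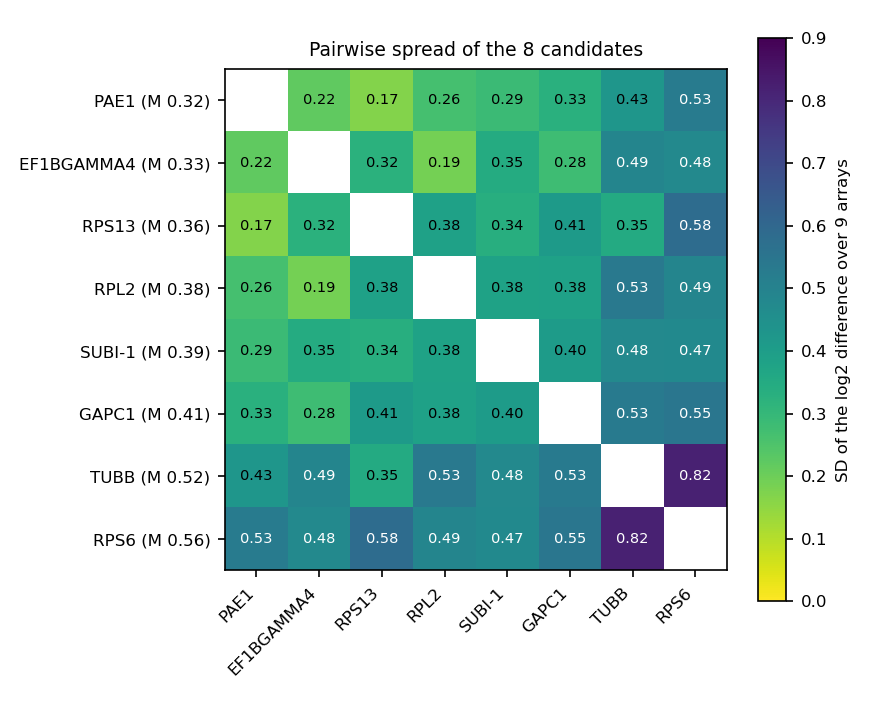
SD over 9 arrays of the log2 difference between each 2 of the 8 candidates (colour and number), ordered on both axes by M, the mean of a row. The smallest value is that of PAE1 and RPS13 (0.17) and the largest that of RPS6 and TUBB (0.82).

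Set against EF1BGAMMA4 on the same array, the rises at 18 °C were smaller by construction. EF1BGAMMA4 itself lay 0.27 higher at 18 °C than at 27 °C, and it was chosen on these same arrays. RPS13 minus EF1BGAMMA4 was 1.90, 2.11 and 1.47 at 18 °C, 1.35, 1.23 and 1.41 at 23 °C, and 1.14, 1.34 and 1.26 at 27 °C, a change of 0.58 at 18 °C against 27 °C. PAE1 minus EF1BGAMMA4 was 2.43, 2.74 and 2.36 at 18 °C, 2.25, 2.24 and 2.24 at 23 °C, and 2.15, 2.20 and 1.95 at 27 °C, a change of 0.41. In both the 18 °C arrays stayed above all others. GAPC1 minus EF1BGAMMA4 was 2.80, 3.21 and 3.13 at 18 °C, 2.76, 2.56 and 2.75 at 23 °C, and 3.31, 3.33 and 2.92 at 27 °C, a change of -0.50 at 23 °C against 27 °C without overlap. These are descriptions with no test.

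Means of 3 genes, chosen after their values were known, are given as a description only, since the choice itself fixes how level the second of them is. The mean of the 3 genes of lowest M (PAE1, EF1BGAMMA4 and RPS13) was 14.02, 13.80 and 13.83 at 18 °C, 13.35, 13.19 and 13.45 at 23 °C, and 13.28, 13.23 and 13.34 at 27 °C. It lay 0.60 higher at 18 °C than at 27 °C, with an SD of 0.30 over 9 arrays. The mean of the 3 bright genes that were level before and after centring (EF1BGAMMA4, RPL2 and RPS6) was 12.23, 12.13 and 11.95 at 18 °C, 12.06, 11.91 and 12.16 at 23 °C, and 12.06, 11.92 and 12.00 at 27 °C. It lay 0.11 higher at 18 °C than at 27 °C with overlap, and its SD was 0.11 as deposited and 0.16 after centring.

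The 12 members with a mean under 10 gave 0 calls in any comparison with limma, and their replicates spread widely. Unadjusted p-values under 0.05 numbered 1 at 18 °C against 27 °C, 0 at 23 °C against 27 °C and 1 at 18 °C against 23 °C, and the methods' t-test also called 0. The lowest mean was that of the beta-tubulin TUBB3, whose probe set read 6.09, -0.22 and 4.86 at 18 °C, 6.12, 2.80 and 3.12 at 23 °C, and 4.42, 7.54 and 7.26 at 27 °C. Its difference of -2.83 ± 1.70 at 18 °C against 27 °C is within that spread (limma adjusted p = 0.554). TUBB2, another beta-tubulin, read 8.20, 7.80 and 7.69 at 18 °C, 7.60, 8.22 and 7.67 at 23 °C, and 8.24, 5.64 and 4.8 at 27 °C, where 2 arrays were low and 1 was not (1.67 ± 0.95 at 18 °C against 27 °C, limma adjusted p = 0.527). Beta-tubulin therefore had 1 bright probe set, which varied most among bright members, and 2 dim ones.

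The 3 probe sets with the symbol GAPDH were also dim. The one of mean 4.92 read 2.26, 4.59 and 0.21 at 18 °C, 4.31, 6.85 and 7.5 at 23 °C, and 6.83, 5.11 and 6.64 at 27 °C. Its 18 °C values lay below all at 27 °C, yet with such spread that the difference of -3.84 ± 1.35 did not pass (limma adjusted p = 0.224). The one of mean 4.84 averaged 4.69 ± 1.03 at 18 °C, 6.01 ± 1.20 at 23 °C and 3.82 ± 0.31 at 27 °C (SD, n = 3 each), and its difference at 18 °C against 27 °C had the opposite sign (0.86 ± 1.06). The one that ends in _s_at averaged 6.84 ± 0.91, 7.95 ± 1.45 and 7.56 ± 2.75 at 18, 23 and 27 °C. The other dim probe sets were EF1BGAMMA4 _at, RPL2 _s_at, and RPL37 _s_at and _at of the large ribosomal subunit, with means of 5.98, 5.32, 7.07 and 5.30 and centred SDs of 1.48, 1.52, 1.5 and 1.91. EF1BGAMMA4 and RPL2 thus have a steady bright probe set and a dim one that says nothing of steadiness.

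**Figure D5:**
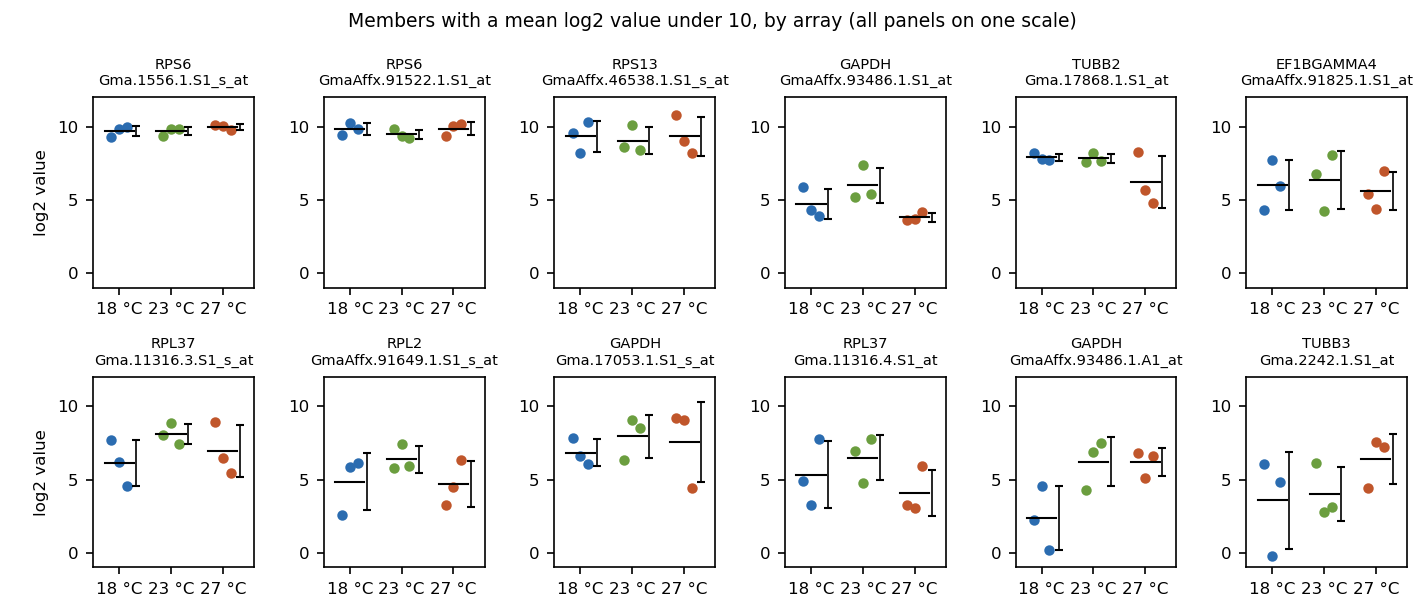
Deposited log2 values (vertical axes, all panels on one scale) of the 12 members with a mean under 10 at 18, 23 and 27 °C. Points are arrays, lines are means and bars are SDs of 3 arrays, and panels run from the smallest centred SD (RPS6, 0.26) to the largest (TUBB3, 2.47).

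Other probe sets of the same machinery were looked at beside the members. The study's own descriptions name 30 probe sets for ribosomal proteins, translation factors, ubiquitin extension protein, tubulin, cytosolic glyceraldehyde-3-phosphate dehydrogenase or the proteasome, of which 1 is a member (PAE1). Those descriptions exist for probe sets that the study picked on these same arrays, so their direction is not independent evidence. Of the 30, 12 rose and 1 fell at 18 °C against 27 °C, 1 rose at 23 °C against 27 °C, and 7 rose and 1 fell at 18 °C against 23 °C, with medians of 0.70, 0.07 and 0.53. Over all soybean probe sets 1.28% rose and 0.845% fell at 18 °C against 27 °C, 0.776% were called in either direction at 23 °C against 27 °C, and 0.55% rose and 0.394% fell at 18 °C against 23 °C.

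Among them were relatives of members that did not move alike. A probe set described as glyceraldehyde-3-phosphate dehydrogenase C subunit 1 read 12.87, 12.84 and 12.74 at 18 °C, 11.34, 11.25 and 10.95 at 23 °C, and 11.03, 11.46 and 11.02 at 27 °C. It rose by 1.65 ± 0.19 at 18 °C against 27 °C (limma adjusted p = 0.00135), where GAPC1 differed by 0.12 ± 0.14. Of tubulin alpha-2, the partner of beta-tubulin in the microtubule, the _at probe set rose by 1.42 ± 0.24 and the _s_at one differed by 1.34 ± 0.31 (limma adjusted p = 0.0124 and 0.0538). Proteasome beta subunit C1 rose by 0.86 ± 0.12 (limma adjusted p = 0.00477). By symbol, the proteasome alpha subunit PAA1 _s_at rose by 0.93 ± 0.16 (limma adjusted p = 0.0125), and PAA1 _at differed by 0.63 ± 0.24 (limma adjusted p = 0.257). All 5 proteasome probe sets with a PAE1 or PAA1 symbol had higher values at 18 °C than at 27 °C, where 53.6% of bright probe sets had a positive difference. Of the 5, 3 passed, beside 1.28% of all and 5.79% of bright probe sets that rose in that comparison. Of these 5, the 3 PAE1 probe sets share a target, so that the 3 calls are 2 genes.

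For translation the described set was mixed. A ribosomal protein S4 probe set rose by 1.00 ± 0.16, an L1p/L10e one by 0.93 ± 0.14 and a 60S acidic one by 0.82 ± 0.15 at 18 °C against 27 °C (limma adjusted p = 0.0067, 0.00598 and 0.0201). The plastid ribosomal protein L11 fell by 0.73 (limma adjusted p = 0.0255), a call that was lost after centring. Translation elongation factor EFG/EF2 rose at both lower temperatures, by 0.79 ± 0.13 at 18 °C and 0.92 ± 0.13 at 23 °C against 27 °C (limma adjusted p = 0.00865 and 0.0084). Others kept closer to level than any member did. The farthest interval limit was 0.46 for L16p/L10e, 0.51 for initiation factor IF2/IF5, 0.52 for S3 and 0.62 for L18ae, whose centred SDs were 0.20, 0.16, 0.21 and 0.17. These 4 were singled out after their values were seen. They come from lists that the study drew up for genes it called differentially expressed on these arrays. Its calls and these intervals therefore differ, and why was not tested.

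The other symbols that are in use as references, CYP1, CYP2, UBC4, SKIP16 and H4, had 7 probe sets, all with means under 10. In limma 0 of them passed in any comparison, with 1 at an unadjusted p under 0.05 in each, and the methods' t-test called 0 as well. The brightest, a CYP2 probe set with a mean of 9.59, differed by 0.84 ± 0.38 at 18 °C against 27 °C (limma adjusted p = 0.389). Its farthest interval limit was 2.07, so it was not level within 1 log2 unit.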

How the data were processed

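Leaf RNA was measured on 9 Soybean GeneChip arrays, 3 each at 18, 23 and 27 °C. The deposited log2 values were made by the authors with RMA, after a custom chip definition file had kept only probe pairs that bound bambara groundnut genomic DNA above a threshold. The methods name a preferred threshold, but the sources used here do not tie it to the deposited table and give no version, slide or scan time, and the step that left values above 16 and below 0 is unknown. The column of the genomic DNA array (1 column) was empty and was not used. Depth has no counterpart on arrays, and the number of arrays limits the precision.

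Members were found by matching the symbol pattern, ignoring case, to the 8365 probe sets with 1 gene symbol in the platform annotation. Symbols can be old, as the annotation table was used as given. Members and lists were chosen with earlier results of these data known. All 36578 soybean probe sets were fitted in 1 model over the 9 arrays with limma 3.58.1 in R 4.3.3 (lmFit, then eBayes with a trended and robust prior, 6 residual degrees of freedom), with Benjamini-Hochberg adjustment over all probe sets and a threshold of 0.05. No filter on low values was set. Bright means a mean of at least 10. A member was level where all 3 two-sided 95% intervals of the differences, unadjusted, lay within 1 log2 unit of 0. SDs were computed over 9 arrays, before and after subtracting each array's median over all soybean probe sets. Calculations outside limma used python 3.11.15, pandas 2.3.3 and numpy 2.4.6. The fit was tested on simulated data with independent normal noise. Those data held no array shifts and no shared plants, so the test cannot speak to either.

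Genes were named where they passed the test, were level, were among the 5 bright members of largest centred SD, carried a symbol of a reference gene in common use, or had the lowest mean. Other members are given by ranges or in short. Further lists came from the study's descriptions, which exist for 667 probe sets, and from symbols of other reference genes and proteasome subunits.

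Alternatives were a constant prior, centring, quantile normalisation, replicate number as a block, a test of bright probe sets alone, only the 6 arrays compared, the methods' t-test, a bound of 0.5, and leaving out each array in turn.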

Additional observations from a re-analysis of the deposited data

How the results depend on the processing

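No called difference changed its sign in any alternative that was run, and counts moved as follows. Of members called at 18 °C against 27 °C (3), 0 were called with a constant prior variance and 0 with the methods' t-test, 2 after quantile normalisation, which lost PAE1 _x_at (limma adjusted p = 0.0716), 2 with only the 6 arrays compared, and 1 to 3 without each replicate in turn. At 23 °C against 27 °C (0), quantile normalisation called 1, and leaving out a replicate called 0. At 18 °C against 23 °C (3), 0 were called with a constant prior variance, 0 with only the 6 arrays compared, 0 with the methods' t-test and 0 to 1 without each replicate in turn, with 3 called after quantile normalisation (GAPC1 in place of RPS13), while a test of the 7017 bright probe sets alone called 6, adding PAE1 _at, GAPC1 and TUBB (limma adjusted p = 0.0349, 0.0184 and 0.0358). Of level members (8), 0 remained with a bound of 0.5, 2 with a constant prior variance, 4 after centring and 3 to 7 without each replicate in turn. The difference of PAE1 _s_at at 23 °C against 27 °C, which was not called, was -0.02 after quantile normalisation in place of 0.12. M of PAE1 was 0.32, and 0.29 over all bright members. The bound of 0.5 and the smaller number of probe sets or arrays tested are changes by construction, and for the others the cause was not tested.

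With the replicate number as a replicate block, 3 members were called at 18 °C against 27 °C, 0 at 23 °C against 27 °C and 1 at 18 °C against 23 °C (PAE1 _x_at, limma adjusted p = 0.0475, with PAE1 _s_at at 0.055 and RPS13 at 0.0743), and 7 were level. Deviations of arrays with the same number correlated by -0.03 to 0.21, over 0.1 in 1 of 9 pairs. Those with different numbers correlated by -0.18 to 0.12, over 0.1 in 1 of 18. These ranges overlap, and with 3 arrays per temperature they cannot settle whether the numbers pair the samples. As the labels do not tie numbers to plants, the main fit did not pair them. At means of 4 to 8 the median SD of all probe sets exceeded the bound of 1 log2 unit, so that the steadiness of members at that level could not be judged.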
